A study of Mus musculus with 4 samples.

Results

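Bone morphogenetic protein (BMP) signalling was followed through 10 genes chosen by name: the ligands Bmp2, Bmp4, Bmp6 and Bmp7, the receptors Acvr1, Bmpr1a and Bmpr2, and the antagonists Nog, Grem1 and Bmper. They are 10 of the 27040 genes shared by the 4 libraries, and each is listed in all 4 under the same identifier and symbol. The data are droplet single-cell RNA counts from mouse Achilles tendon, 1 library per group, each a pool of 5 tendons. Vegfc CRE tendon was taken at day 7 after the procedure labelled B/T. Prox1 eGFP tendon was taken at day 0 with no treatment, at day 7 after B/T and at day 21 after B/T. The study set injured tendon against uninjured tendon, and the labels do not expand B/T, give no strain, age or sex, and do not say in which cells the CRE recombinase acts or whether these mice carried a reporter.

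BMPs are secreted dimers of the transforming growth factor beta superfamily. They bind a complex of type I receptors (Acvr1 and Bmpr1a among them) and type II receptors (Bmpr2 among them), which phosphorylates Smad1, Smad5 and Smad9. These enter the nucleus with Smad4 and switch on targets such as the Id genes and the inhibitory Smads. Noggin and gremlin bind the ligands outside the cell and keep them from their receptors, and Bmper binds BMPs and can dampen or promote signalling. In musculoskeletal tissue the pathway is best known for driving cartilage and bone formation, and in muscle it keeps progenitors from differentiating early.

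Bmp4 and Bmp6 carry the main findings below. They are the ligands whose class level in muscle progenitor-like cells differed beyond counting error between day 21 and day 7 of Prox1 eGFP. The 250 bases before their RefSeq start sites (build GRCm38.p6) are shown for that reason. The direction of both differences depends on which day 7 library is taken, as given below. Bmp2 differed within clusters of that class but not over the class. The Bmp4 stretch is chr14:46390670-46390919 on the minus strand and the Bmp6 stretch is chr13:38345466-38345715 on the plus strand. The Bmp4 stretch adjoins the GENCODE M21 gene, which ends at 46390669. The Bmp6 stretch lies inside the GENCODE M21 gene, which starts at 38345107, so the RefSeq and GENCODE starts differ there. Capitals mark matches to CANNTG, the E-box core that basic helix-loop-helix factors such as MyoD recognise, read on both strands, which are the same for this palindromic pattern.
Bmp4: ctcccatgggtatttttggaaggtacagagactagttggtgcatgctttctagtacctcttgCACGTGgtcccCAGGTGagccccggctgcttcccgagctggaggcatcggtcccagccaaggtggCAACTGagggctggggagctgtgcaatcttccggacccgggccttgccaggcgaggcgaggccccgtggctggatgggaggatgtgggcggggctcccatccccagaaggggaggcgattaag
Bmp6: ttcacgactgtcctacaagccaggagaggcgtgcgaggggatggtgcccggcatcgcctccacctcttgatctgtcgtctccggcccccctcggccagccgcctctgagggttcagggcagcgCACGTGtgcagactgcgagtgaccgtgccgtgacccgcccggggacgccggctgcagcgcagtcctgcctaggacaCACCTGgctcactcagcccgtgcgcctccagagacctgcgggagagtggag
Bmp4 held 3 matches and Bmp6 held 2, and neither held GGCGCC, a palindrome that Smad1 and Smad5 bind. Over 32851 promoters of that length, 66.2% held CANNTG and 9.59% held GGCGCC, so an E-box core is common and its presence in both is a description only. The table held a promoter for 7 of the 10 members.

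The files held 92568978 unique molecular identifiers (UMIs, 1 per captured RNA molecule) for Vegfc CRE and 6761289, 59312181 and 59894792 for Prox1 eGFP days 0, 7 and 21. After filtering, 6978 cells remained in Vegfc CRE and 690, 4871 and 6301 in Prox1 eGFP days 0, 7 and 21. The labels describe a sort for Prox1-expressing cells and also call the cells unsorted. A Prox1 UMI was seen in 1.15% of Vegfc CRE cells and in 8.84%, 96.8% and 86.7% of Prox1 eGFP cells at days 0, 7 and 21, so cell shares may be set by a sort. Pairs of libraries shared 1 to 10 cell barcodes. The Prox1 eGFP day 7 library was counted on a list of 27998 genes and the other 3 on a list of 32285, so its comparison with day 21 sets 2 gene lists against each other. With 1 library per group no test is possible, and every interval below is a 95% interval for counting error only. Levels are UMIs of a gene scaled to all UMIs of the cell group as CPM, given for groups of at least 30 cells unless said otherwise.

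Cells were grouped by clustering without the pathway genes and named from fixed marker lists. Muscle progenitor-like cells (markers such as Pax7, Myf5 and Calcr) made up 3270 cells of Prox1 eGFP at day 21 and 3444 at day 7. Lymphatic endothelial-like cells (Prox1, Flt4, Mmrn1) numbered 1912 at day 21 and 991 at day 7. There were 121 vascular endothelial-like cells at day 21, 677 in Vegfc CRE and 33 in Prox1 eGFP day 7. Fibroblast-like cells (307 at day 21), tenocyte-like cells (102) and mural-like cells (82) were counted at day 21 and, with 1406, 491 and 230 cells, in Vegfc CRE. The day 0 library was mostly immune, with 400 T/NK-like and 111 B/plasma-like cells and no muscle progenitor-like cell, so day 0 gives no baseline for the muscle or lymphatic values.

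**Figure D1:**
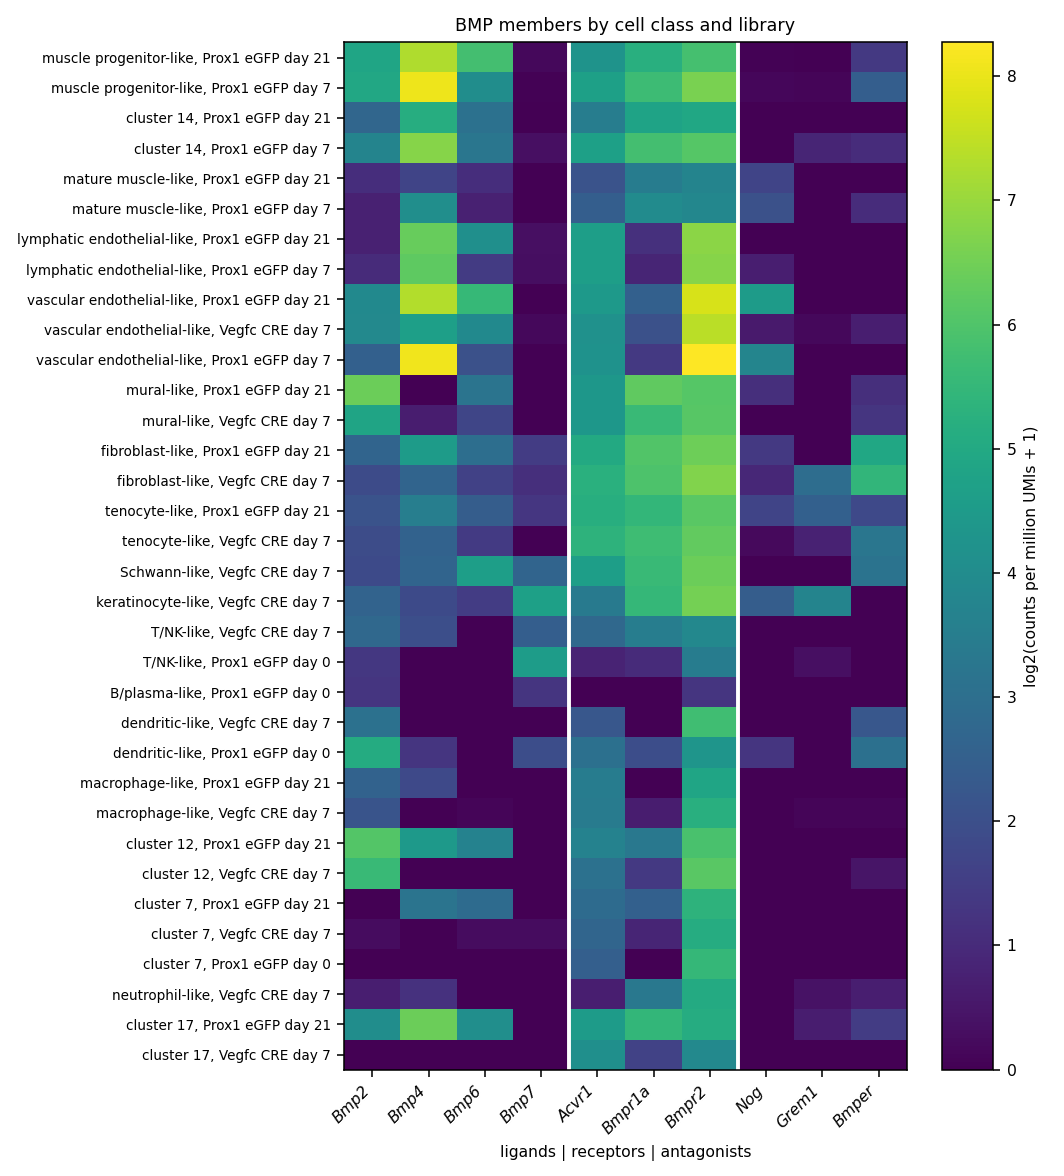
Level of each BMP member (columns, in the order ligands, receptors, antagonists) in each cell class and library with at least 30 cells (rows), as log2(CPM + 1). Bmp4 is brightest in muscle progenitor-like and vascular endothelial-like cells of the Prox1 eGFP libraries, Bmpr1a is dark in both endothelial classes, and among the antagonists Bmper is brightest in fibroblast-like cells and Nog in vascular endothelial-like cells of the injured Prox1 eGFP libraries.

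Among the ligands, Bmp4 (chr14:46383520-46390669, minus strand), a ligand used widely in mesoderm and its derivatives, was the most often counted in the 2 injured Prox1 eGFP libraries. It gave 501 UMIs in Vegfc CRE and 7, 9709 and 5525 UMIs in Prox1 eGFP days 0, 7 and 21. Muscle progenitor-like cells held 62.3% of its UMIs at day 21 and 76.3% at day 7, and lymphatic endothelial-like cells held 26.9% at day 21 and 16.6% at day 7. In Vegfc CRE its UMIs lay in vascular endothelial-like (39.1%), fibroblast-like (37.7%) and tenocyte-like (12.2%) cells.

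In muscle progenitor-like cells Bmp4 stood at 154.3 CPM at day 21 (149.1 to 159.5, in 1664 of 3270 cells), against 268.3 CPM at day 7 (262.2 to 274.5, in 2418 of 3444 cells). The intervals do not overlap and the ratio of day 21 over day 7 was 0.575 (0.552 to 0.599). With each cell thinned to 2000 UMIs, a Bmp4 UMI was found in 23.9% of cells at day 21 and 35.1% at day 7. Most day 21 cells fell in cluster 0 and most day 7 cells in cluster 1, yet Bmp4 was lower at day 21 in both. It stood at 149.3 CPM at day 21 and 270.0 CPM at day 7 in cluster 0 (ratio 0.553, 0.520 to 0.589), and at 184.4 and 268.7 CPM at day 21 and day 7 in cluster 1 (0.686, 0.625 to 0.753). The mural-like cells of the same day 21 library held no Bmp4 UMI in 82 cells, which allows a share of up to 3.66%. Their median depth was higher (9295.5 UMIs per cell, against 6502 in the muscle progenitor-like cells). Other groups of that library did hold Bmp4, in 58.3% of cells of the unnamed cluster 17 and 46.3% of vascular endothelial-like cells. The shares were 31.9% in lymphatic endothelial-like and 21.2% in fibroblast-like cells. Bmp4 was thus not particular to the muscle progenitor-like cells.

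The day 7 value depends on which day 7 library is taken. The 27 muscle progenitor-like cells of Vegfc CRE at day 7, a library counted on the same gene list as day 21, had 137.7 CPM of Bmp4 (82.9 to 215, from 19 UMIs), and day 21 of Prox1 eGFP over these cells gave a ratio of 1.12 (0.716 to 1.86). Gene list, genotype, sort and day cannot be told apart between these libraries. The values below that rest on Prox1 eGFP day 7 carry the same limit.

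The lymphatic endothelial-like class had 79.8 CPM of Bmp4 at day 21 (75.8 to 84.0) and 72.7 CPM at day 7 (69.2 to 76.3), a ratio of 1.10 (1.02 to 1.18). The class was uneven. Cluster 2, led by Clca3a1, had 138.2 CPM at day 21 and 136.3 CPM at day 7, while cluster 3, rich in Lyve1 and Reln, had 25.55 CPM at day 21 and 30.04 CPM at day 7. The difference between these clusters was thus about the same at both times and larger than the change over time within either. Cluster 18, whose leading genes are those of dividing cells, stood at 34.1 CPM at day 21 and 19.3 CPM at day 7. The 8 lymphatic endothelial-like cells of Vegfc CRE had 229.4 CPM (136 to 362.5, from 18 UMIs), and the ratio of day 21 over them was 0.348 (0.219 to 0.589). Markers of muscle progenitors summed to 43.9 CPM at day 21 and 81.4 CPM at day 7 in the lymphatic class, with all 7 detected each time, against 2651 CPM at day 21 and 3677 CPM at day 7 in the muscle class. Their part in the lymphatic Bmp4 level was not tested.

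Vascular endothelial-like cells differed widely between libraries. Bmp4 stood at 156.8 CPM at day 21 (135.7 to 180.2), 24.7 CPM in Vegfc CRE (21.3 to 28.4) and 269.8 CPM at day 7 of Prox1 eGFP (230.7 to 313.5). No 2 of the 3 intervals overlap. Vegfc CRE over Prox1 eGFP at day 7 was 0.0914 (0.0740 to 0.113), and day 21 over Prox1 eGFP day 7 was 0.581 (0.471 to 0.718). The second ratio was 0.956 (0.784 to 1.17) when each library was clustered alone and 6.36 (5.195 to 7.791) over Vegfc CRE, so its direction is not settled. Bmp4 was higher in cluster 10, which carries the venule genes Ackr1 and Selp, than in cluster 16, which carries the capillary genes Rgcc and Timp4. The values were 244.1 CPM in cluster 10 and 30.9 CPM in cluster 16 at day 21, and 27.8 CPM and 13.6 CPM for the same clusters in Vegfc CRE. Lymphatic markers summed to 1320 CPM at day 21 (8 of 8 detected), 46.7 CPM in Vegfc CRE (7 of 8, Reln at 0) and 972.8 CPM at day 7 (7 of 8, Reln at 0), most of the last from Prox1 itself at 780.8 CPM. Their part in the vascular Bmp4 level was not tested.

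Further along the muscle lineage Bmp4 was lower. Cluster 14, which stayed unnamed and is led by Myog and Mymk, genes of differentiating myocytes, had 34.3 CPM at day 21 and 108.1 CPM at day 7, a ratio of 0.317 (0.238 to 0.417). Mature muscle-like cells had 2 UMIs at day 21 (2.24 CPM) and 46 UMIs at day 7 (16.1 CPM), a ratio of 0.139 (0.0163 to 0.531). Muscle progenitor-like, cluster 14 and mature muscle-like cells thus gave the same order at each time, highest in progenitors and lowest in mature muscle. Fibroblast-like cells had 22.2 CPM at day 21 and, in Vegfc CRE, 5.40 CPM, with muscle progenitor markers at 63.3 CPM at day 21 and, in Vegfc CRE, 16.4 CPM beside them. Macrophage-like cells of Vegfc CRE had no Bmp4 UMI in 1161 cells, which allows a share of up to 0.258%. The T/NK-like cells of day 0 had none in 400 cells, which allows up to 0.750%. At day 21 of Prox1 eGFP the macrophage-like cells had 1 Bmp4 UMI in 31 cells. The macrophage-type cluster 12 had 7 UMIs in 4 of 33 cells there (20.7 CPM) and 0 UMIs in 330 cells of Vegfc CRE. The source of these day 21 UMIs was not tested.

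**Figure D2:**
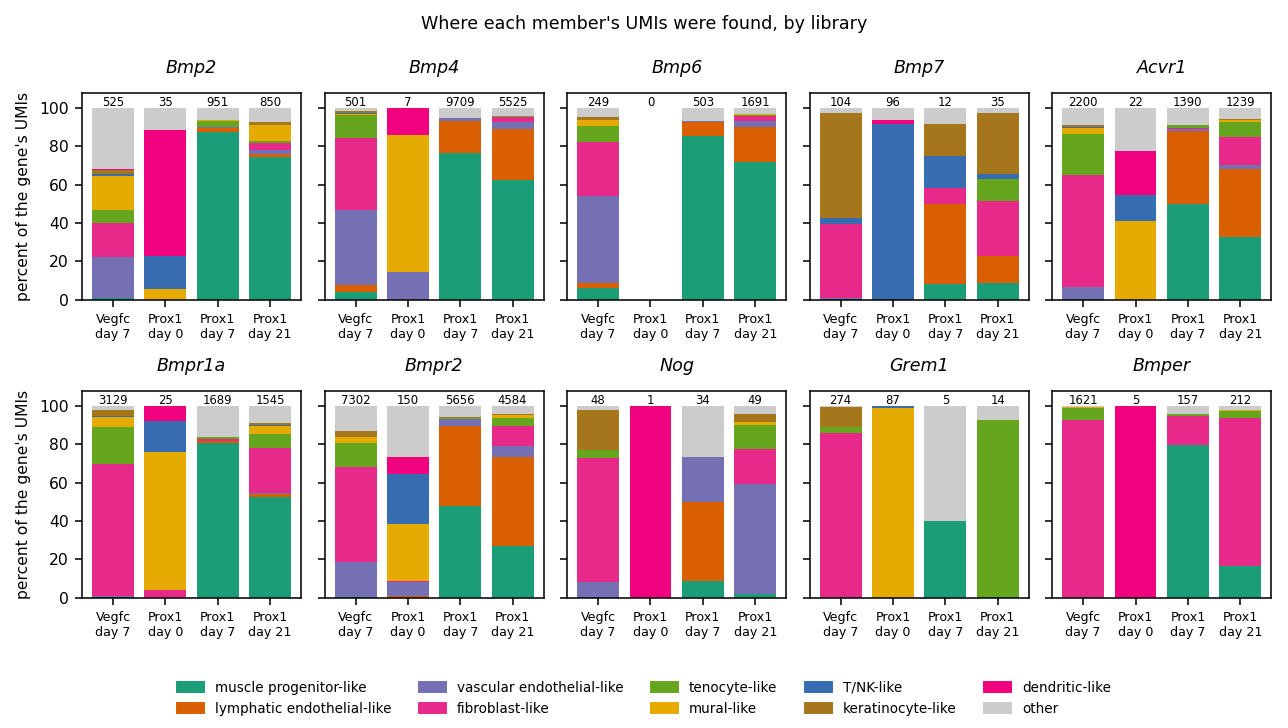
Share of each member's UMIs held by each cell class (stacked bars, percent), for Vegfc CRE day 7 and for Prox1 eGFP days 0, 7 and 21, with the number of UMIs above each bar. Bmp2, Bmp4 and Bmp6 lie mostly in muscle progenitor-like cells at days 7 and 21 of Prox1 eGFP, and Bmper and Grem1 mostly in fibroblast-like cells in Vegfc CRE.

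Bmp6 (chr13:38345107-38500302, plus strand), best known in adults for setting hepcidin and thus iron balance from the liver endothelium, shared its main cell class with Bmp4. It gave 249 UMIs in Vegfc CRE and 0, 503 and 1691 UMIs in Prox1 eGFP days 0, 7 and 21, and muscle progenitor-like cells held 71.9% of these at day 21 and 85.1% at day 7. Day 0 had no Bmp6 UMI in 690 cells.

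In the muscle progenitor-like class Bmp6 stood at 54.4 CPM at day 21 (51.4 to 57.6) and 15.5 CPM at day 7 (14.06 to 17.03), a ratio of 3.51 (3.14 to 3.93). Cluster 0 had 50.7 CPM at day 21 and 12.5 CPM at day 7, and cluster 1 had 80.8 CPM at day 21 and 16.5 CPM at day 7. The ratio was above 4 in each cluster, 4.05 (3.18 to 5.24) in cluster 0 and 4.91 (4.12 to 5.83) in cluster 1. Bmp6 and Bmp4 therefore ran in opposite directions in the same cells of the same pair of libraries. The 27 muscle progenitor-like cells of Vegfc CRE at day 7 had 108.7 CPM of Bmp6 (60.8 to 179.3, from 15 UMIs in 11 cells), above both, and the ratio of day 21 over them was 0.501 (0.302 to 0.897). The direction for Bmp6 thus turned with the day 7 library taken. Cluster 14 of the same 2 Prox1 eGFP libraries had 7.42 CPM at day 21 and 8.46 CPM at day 7, with a ratio of 0.878 (0.423 to 1.72).

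Lymphatic endothelial-like cells had 16.4 CPM of Bmp6 at day 21 (14.7 to 18.4) and 1.72 CPM at day 7 (1.21 to 2.35), a ratio of 9.59 (6.83 to 13.8). Thinned to equal depth, 3.25% of cells at day 21 and 0.304% at day 7 had a UMI. All 3 clusters showed the order, with 17.8 CPM at day 21 and 2.55 CPM at day 7 in cluster 2, 14.4 and 1.44 CPM at day 21 and day 7 in cluster 3, and 22.1 and 0.586 CPM at day 21 and day 7 in cluster 18. Against the 8 cells of Vegfc CRE (76.5 CPM, 28.1 to 166.4, from 6 UMIs) the ratio of day 21 was 0.215 (0.0977 to 0.591). Vascular endothelial-like cells had 45.9 CPM at day 21, 14.2 CPM in Vegfc CRE and 3.17 CPM (2 UMIs) at day 7 of Prox1 eGFP. Day 21 was above both day 7 libraries there, with ratios of 3.23 (2.31 to 4.48) over Vegfc CRE and 14.5 (3.83 to 122) over Prox1 eGFP. Within this class Bmp6 was higher in the capillary-type cluster 16 (77.3 CPM at day 21 and, in Vegfc CRE, 41.3 CPM) than in cluster 10 (24.1 CPM at day 21 and, in Vegfc CRE, 6.47 CPM), the reverse of Bmp4. Schwann-like cells of Vegfc CRE had 23.8 CPM from 9 UMIs.

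**Figure D3:**
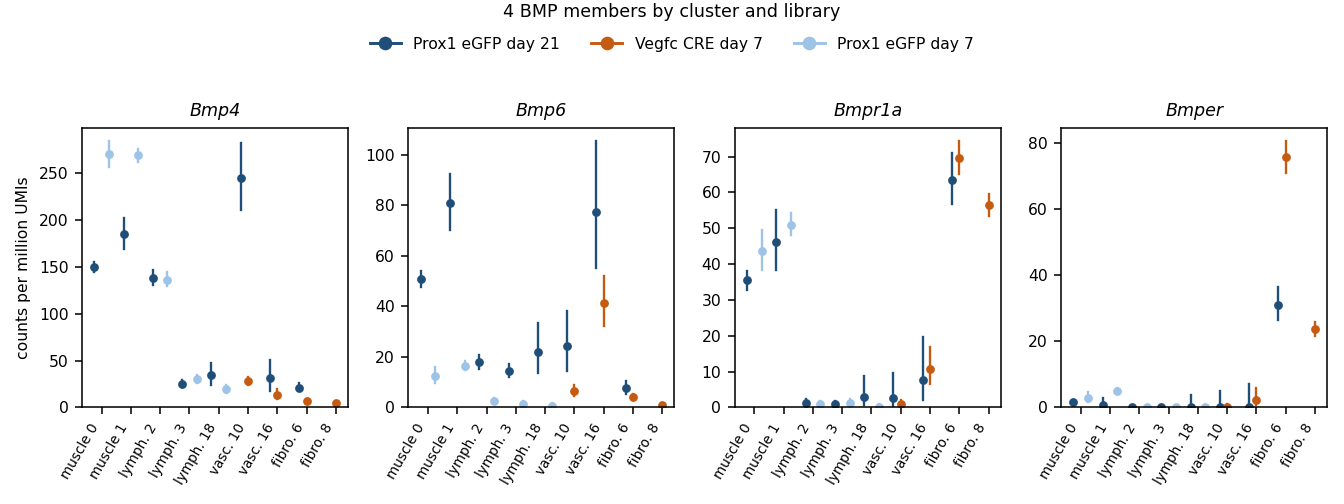
CPM of Bmp4, Bmp6, Bmpr1a and Bmper (one panel each) in the muscle progenitor-like, lymphatic, vascular and fibroblast-like clusters with at least 30 cells, by library, with bars for the 95% counting interval. Bmp4 peaks in cluster 10 and Bmp6 in cluster 16 of the vascular class, and Bmper is high in the fibroblast-like clusters 6 and 8 only among the clusters drawn.

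Bmp2 (chr2:133552159-133562885, plus strand), a strong inducer of bone and cartilage, gave 525 UMIs in Vegfc CRE and 35, 951 and 850 UMIs in Prox1 eGFP days 0, 7 and 21. Muscle progenitor-like cells held 74.2% of these at day 21 and 87.3% at day 7. Their level was 28.3 CPM at day 21 (26.1 to 30.6) and 30.1 CPM at day 7 (28.0 to 32.2), and the ratio of 0.941 (0.847 to 1.04) includes 1. Within clusters the order was the other way, with ratios of 1.40 (1.13 to 1.74) in cluster 0 and 1.31 (1.06 to 1.59) in cluster 1. Cluster 1 had the higher level at each time (43.2 CPM at day 21 and 33.1 CPM at day 7, against 26.3 and 18.8 CPM for the same days in cluster 0) and held most day 7 cells, so the class value mixes the 2 clusters in different shares.

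Among groups of at least 30 cells Bmp2 was highest in the mural-like cells of day 21, with 83.3 CPM (65.2 to 104.9, from 72 UMIs in 25 of 82 cells). Mural-like cells of Vegfc CRE had 27.4 CPM and were not the highest group there. Cluster 12, macrophage-type cells led by Cd209f, Cd163 and Folr2 that stayed unnamed, had 65.0 CPM at day 21 and, in Vegfc CRE, 48.2 CPM, where it held 23.4% of all Bmp2 UMIs. At day 0 the dendritic-like cells held 23 of the 35 Bmp2 UMIs (33.2 CPM). Vascular endothelial-like cells had 14.25 CPM at day 21, 13.96 CPM in Vegfc CRE and 4.76 CPM (3 UMIs) at day 7 of Prox1 eGFP. Lymphatic endothelial-like cells had only 0.699 CPM at day 21 and 1.04 CPM at day 7. In Vegfc CRE the UMIs of Bmp2 were spread over several classes, with cluster 12, vascular endothelial-like (21.1%) and mural-like cells (18.1%) holding the most.

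Bmp7 (chr2:172868012-172940321, minus strand), needed for kidney and eye development, was scarce, with 104 UMIs in Vegfc CRE and 96, 12 and 35 UMIs in Prox1 eGFP days 0, 7 and 21. Keratinocyte-like cells of Vegfc CRE had 25.04 CPM (57 of the 104 UMIs, 54.8%), and fibroblast-like cells held 40 UMIs at 1.14 CPM. At day 0 the T/NK-like cells held 88 of 96 UMIs (91.7%), in 71 of 400 cells, at 22.5 CPM (18.1 to 27.8). The B/plasma-like cells beside them had a UMI in 1 of 111 cells, at a median depth of 4809 UMIs against 6945 in the T/NK-like cells.

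The 71 T/NK-like cells with a Bmp7 UMI were compared with the 329 without, as a description. T/NK markers summed to 3431 CPM in cells with Bmp7 and 4136 CPM in cells without. Cd8a stood at 8.97 CPM with and 102 CPM without Bmp7, Foxp3 at 86.7 CPM with and 89.6 CPM without, and the proliferation gene Mki67 at 317.8 CPM with and 113.4 CPM without. Macrophage markers summed to 62.8 CPM in cells with Bmp7 (6 of 9 detected) and 3.79 CPM in cells without (5 of 9 detected). Median depth was 7761 UMIs with and 6856 without. Cluster 12 at day 0, with 15 cells, had 4 Bmp7 UMIs (93.9 CPM, 25.6 to 240.5). The part of macrophage RNA in the T/NK value was not tested.

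The receptors were spread more widely than the ligands, and the lymphatic endothelial-like class had at least 1 receptor UMI in 64.3% of its cells at day 21 and 83.9% at day 7, and in 48.8% of muscle progenitor-like cells at day 21 and 66.1% at day 7. In Vegfc CRE a receptor UMI was found in 91.9% of fibroblast-like and 92.5% of tenocyte-like cells. A ligand UMI was found in 66.9% of muscle progenitor-like cells at day 21 and 76.8% at day 7, against 16.6% of fibroblast-like cells of Vegfc CRE. An antagonist UMI showed the opposite placing, in 1.01% of muscle progenitor-like cells at day 21 and 3.48% at day 7, against 49.4% of fibroblast-like cells of Vegfc CRE. These shares are not corrected for depth, and the fibroblast-like cells of Vegfc CRE were deeper (median 23115.5 UMIs per cell) than the muscle progenitor-like cells (6502 at day 21 and 7580 at day 7).

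Acvr1 (chr2:58388644-58567157, minus strand), a type I receptor whose activating mutations cause ectopic bone formation in humans, was counted in most stromal, muscle and endothelial groups. It stood at 35.7 and 31.5 CPM in tenocyte-like and fibroblast-like cells at day 21, and at 39.9 and 36.7 CPM in the same classes of Vegfc CRE. Lymphatic endothelial-like cells had 23.7 CPM at day 21 and 24.1 CPM at day 7 (ratio 0.981, 0.863 to 1.12). Vascular endothelial-like cells had 20.6 CPM at day 21, 17.1 CPM in Vegfc CRE and 17.5 CPM at day 7 of Prox1 eGFP, with overlapping intervals. Muscle progenitor-like cells had 18.14 CPM at day 21 and 24.98 CPM at day 7 (ratio 0.726, 0.641 to 0.822). Within clusters the ratio was 0.886 (0.7145 to 1.105) in cluster 0 and 0.760 (0.562 to 1.008) in cluster 1. Both of these intervals include 1, so the lower class level is not clear within clusters. Neutrophil-like cells had 0.632 CPM, and no UMI was found in the B/plasma-like cells.

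Bmpr1a (chr14:34410734-34503341, minus strand), the type I receptor that binds Bmp2 and Bmp4 with high affinity, separated stromal and muscle cells from endothelium. Fibroblast-like cells had 63.8 CPM at day 21 (57.4 to 70.8) and, in Vegfc CRE, 61.3 CPM (58.8 to 64.0), and mural-like cells had 75.2 CPM at day 21 and, in Vegfc CRE, 47.5 CPM. Tenocyte-like, Schwann-like and keratinocyte-like cells lay between 43.8 and 50.7 CPM. The lymphatic endothelial-like class had 1.24 CPM at day 21 (0.784 to 1.86) and 0.812 CPM at day 7 (0.481 to 1.28), with a UMI in 0.994% of cells at day 21 and 1.72% at day 7. The vascular endothelial-like class had 4.75, 3.14 and 1.59 CPM at day 21, in Vegfc CRE and at day 7 of Prox1 eGFP. The lymphatic values lay near those of macrophage-like cells, with 0.594 CPM and a UMI in 0.603% of 1161 Vegfc CRE cells (median depth 9144, against 8717.5 in the day 21 lymphatic cells). The lymphatic level is therefore not read as expression. The vascular shares were higher, 4.13% at day 21 (5 of 121 cells), 3.25% in Vegfc CRE (22 of 677 cells) and 3.03% at day 7 of Prox1 eGFP (1 of 33 cells), at median depths of 8279, 9596 and 20128. In muscle progenitor-like cells it stood at 36.5 CPM at day 21 and 49.4 CPM at day 7 (ratio 0.738, 0.676 to 0.806), with ratios of 0.812 (0.701 to 0.944) in cluster 0 and 0.906 (0.745 to 1.09) in cluster 1.

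Bmpr2 (chr1:59763400-59879014, plus strand), the type II receptor whose loss underlies heritable pulmonary arterial hypertension, was counted widely and was highest in vascular endothelium. Vascular endothelial-like cells had 217.8 CPM at day 21 (192.8 to 245.1), 168.8 CPM in Vegfc CRE (159.8 to 178.0) and 307.9 CPM at day 7 of Prox1 eGFP (266.1 to 354.4). The ratio of day 21 over Prox1 eGFP day 7 was 0.707 (0.587 to 0.855), but 1.29 (1.13 to 1.47) over Vegfc CRE, so its direction turned with the day 7 library. Lymphatic endothelial-like cells had 113.7 CPM at day 21 (108.9 to 118.7) and 107.3 CPM at day 7 (103.0 to 111.7), a ratio of 1.06 (0.999 to 1.12), and held 46.2% of the library's Bmpr2 UMIs at day 21 and 42.0% at day 7.

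Muscle progenitor-like cells had 55.4 CPM of Bmpr2 at day 21 (52.3 to 58.5) and 97.3 CPM at day 7 (93.70 to 101.1), a ratio of 0.569 (0.531 to 0.609). The ratio was 0.722 in both main clusters (0.643 to 0.811 in cluster 0 and 0.621 to 0.834 in cluster 1). The 27 muscle progenitor-like cells of Vegfc CRE had 57.97 CPM (25.03 to 114.2, from 8 UMIs), a ratio of 0.955 (0.483 to 2.22) for day 21 over them. Fibroblast-like cells had 85.3 CPM at day 21 and, in Vegfc CRE, 103.1 CPM, while T/NK-like cells at day 0 had 9.99 CPM. Bmpr1a and Bmpr2 UMIs were found together in 826 of the 1406 fibroblast-like cells of Vegfc CRE and in 14 of the 991 lymphatic endothelial-like cells at day 7.

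**Figure D4:**
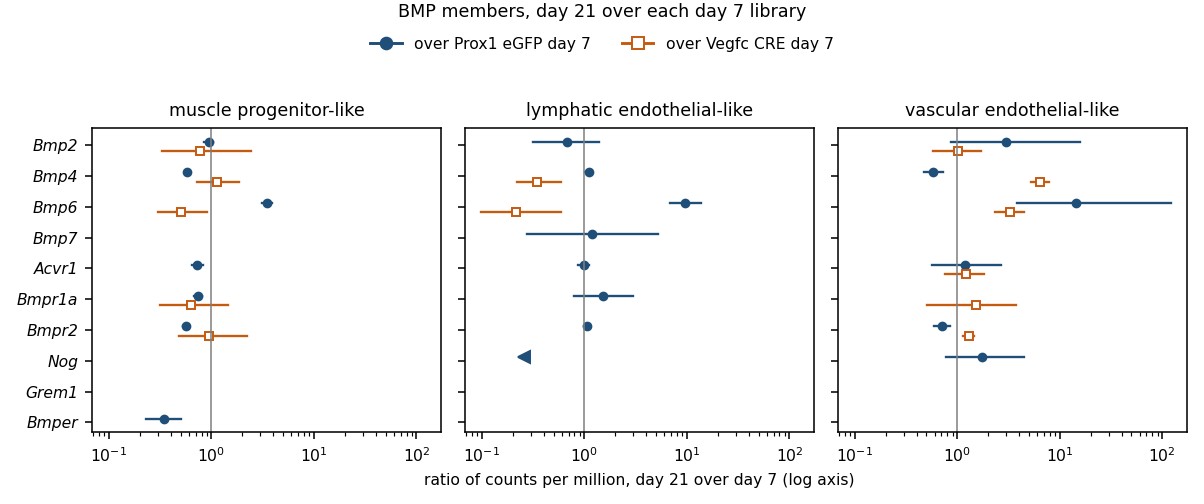
Ratio of CPM of day 21 of Prox1 eGFP over Prox1 eGFP day 7 (filled circles) and over Vegfc CRE day 7 (open squares, only with at least 5 UMIs in each library), for each member in 3 classes, on a log axis with 95% counting intervals and a line at 1. A left-pointing triangle is an upper limit from 0 UMIs at day 21. In muscle progenitor-like cells Bmp6 falls on opposite sides of 1 for the 2 day 7 libraries. The points for Bmp4 do too, but its interval over Vegfc CRE includes 1. Bmp6 lies above 1 for both libraries in vascular endothelial-like cells.

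Nog (chr11:89300638-89302332, minus strand), which encodes noggin, gave 48 UMIs in Vegfc CRE and 1, 34 and 49 UMIs in Prox1 eGFP days 0, 7 and 21. In vascular endothelial-like cells it stood at 22.2 CPM at day 21 (14.7 to 32.1), 0.503 CPM in Vegfc CRE (0.137 to 1.29) and 12.7 CPM at day 7 of Prox1 eGFP (5.48 to 25.01). The Prox1 eGFP values rest on few cells, 28 UMIs in 7 cells at day 21 and 8 UMIs in 3 cells at day 7, and the Vegfc CRE value on 4 UMIs in 3 of 677 cells. Vegfc CRE over Prox1 eGFP at day 7 was 0.0396 (0.00873 to 0.148). All 28 day 21 UMIs lay in cluster 10 (37.6 CPM), the cluster that also held the Bmp4. Lymphatic endothelial-like cells had no Nog UMI in 1912 cells at day 21 and 14 UMIs in 4 of 991 cells at day 7 (0.632 CPM). With its 0 set to the limit of 3 counts, Nog was 3.92-fold lower at day 21, and 2.79-fold lower at the lower end of the counting interval. This difference rests on 4 cells and was lost when the cells with the highest doublet scores were left out.

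Grem1 (chr2:113746164-113758646, minus strand), which encodes gremlin, gave 274 UMIs in Vegfc CRE and 87, 5 and 14 UMIs in Prox1 eGFP days 0, 7 and 21. In Vegfc CRE fibroblast-like cells held 85.4% of the UMIs at 6.69 CPM (5.86 to 7.604), in 64 of 1406 cells. Of these 234 UMIs, 232 lay in cluster 8 (10.5 CPM), a fibroblast-like cluster led by Cxcl5 and found almost only in Vegfc CRE, and 2 in cluster 6 (0.155 CPM), the fibroblast-like cluster led by Pi16 and Clec3b. The 307 fibroblast-like cells of day 21, nearly all of cluster 6, had none. Within cluster 8 the matrix protease Mmp13 stood at 216.4 CPM in cells with a Grem1 UMI and 87.8 CPM in cells without, and the proteoglycan Acan at 295.6 CPM with and 164.5 CPM without, at median depths of 31898.5 UMIs with and 29446 without. At day 21 of Prox1 eGFP 13 of 14 Grem1 UMIs lay in 5 tenocyte-like cells (4.79 CPM), and keratinocyte-like cells of Vegfc CRE had 12.3 CPM.

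At day 0, 86 of the 87 Grem1 UMIs lay in 26 cells of the mural-like cluster 13, a group under the minimum of 30 cells, at 312.6 CPM (250 to 386.1, in 15 cells). These cells differed from the rest of their cluster. Ccl19, a chemokine known from lymph node stroma, stood at 79.2 CPM in the 230 cells of Vegfc CRE, and in Prox1 eGFP at 5245 CPM on day 0 and 459.2 CPM on day 21. Cxcl13, another such chemokine, had 1465 CPM on day 0 and no UMI in the cluster 13 cells of the other 3 libraries. The smooth muscle gene Myh11 stood at 611.3 CPM in Vegfc CRE, and in Prox1 eGFP at 152.7 CPM on day 0 and 1594 CPM on day 21. The mural name is therefore not used for the day 0 cells, and their Grem1 is not set against the injured libraries.

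Bmper (chr9:23223076-23485200, plus strand), the secreted BMP-binding endothelial regulator, was mainly a fibroblast transcript here and gave 1621 UMIs in Vegfc CRE and 5, 157 and 212 UMIs in Prox1 eGFP days 0, 7 and 21. Fibroblast-like cells had 29.2 CPM at day 21 (24.9 to 34.0, 77.4% of the library's UMIs) and, in Vegfc CRE, 42.9 CPM (40.7 to 45.1, 92.5%, in 653 of 1406 cells). Within cluster 6 it stood at 31.1 CPM at day 21 and, in Vegfc CRE, 75.6 CPM, and cluster 8 of Vegfc CRE had 23.7 CPM. The 7 fibroblast-like cells of Prox1 eGFP day 7 had 24 UMIs. Grem1 lay almost wholly in cluster 8, while Bmper was counted in both fibroblast-like clusters of Vegfc CRE, in 377 of 691 cells of cluster 6 and 276 of 715 cells of cluster 8. A UMI of both was found in 37 of the 1406 cells, where 64 had Grem1 and 653 had Bmper.

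In cluster 6 of Vegfc CRE the chemokine Cxcl14 stood at 1482 CPM in cells with a Bmper UMI and 523 CPM in cells without, and Cxcl13 at 87.4 CPM with and 10.9 CPM without, at median depths of 19770 UMIs with and 17493 without. Muscle progenitor-like cells had 1.57 CPM of Bmper at day 21 and 4.53 CPM at day 7 (ratio 0.346, 0.231 to 0.508). In cluster 0 the ratio was 0.593 (0.317 to 1.154), which includes 1, from 33 UMIs at day 21 and 16 at day 7. In cluster 1 it was 0.152 (0.0182 to 0.563), from only 2 UMIs at day 21 and 106 at day 7. Despite its name, Bmper had no UMI in the 1912 lymphatic endothelial-like cells of day 21 or the 991 of day 7, which allows up to 0.157% and 0.303% of cells with a UMI at those days and sets no limit on cells that express it below detection. The 121 vascular endothelial-like cells of day 21 had none either, and the 677 of Vegfc CRE had 5 UMIs.

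Counted by size, few members moved at least 2-fold between day 21 and day 7 of Prox1 eGFP. In muscle progenitor-like cells 7 members had at least 10 UMIs over both libraries. Of these 1 (Bmp6) was at least 2-fold higher and 1 (Bmper) at least 2-fold lower. Over the 13660 genes tested there, 3.7% were higher and 11% lower. The Bmper ratio in cluster 0 alone was 0.593 (0.317 to 1.154), which is not 2-fold and includes 1. In lymphatic endothelial-like cells 1 of 8 (Bmp6) was higher and 1 (Nog) lower, where 3.77% of genes were higher and 7.88% lower. In vascular endothelial-like cells 2 of 6 (Bmp2 and Bmp6) were higher and none lower, where 7.24% of genes were higher and 12.7% lower, and both rest on 2 or 3 UMIs at day 7. In mature muscle-like cells none of 5 was higher and 1 (Bmp4) lower, where 9.17% of genes were higher and 12.1% lower.

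None of the 6 members tested in cluster 14 was at least 2-fold higher at day 21 and 5 (Bmp2, Bmp4, Acvr1, Bmpr1a and Bmpr2) were lower, where 4.47% of genes were higher and 21.6% lower. With TMM scaling, which sets the bulk of genes level between libraries, 2 (Bmp4 and Acvr1) were lower and none higher, where 7.23% of genes were higher and 15.2% lower. The cells of this cluster differed between the days in muscle genes, with Myog at 4437 CPM at day 21 and 1634 CPM at day 7, and Pax7 at 68.5 CPM at day 21 and 300.1 CPM at day 7. The part of that difference in the member levels was not tested.

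The median log2 ratio over the members tested was -1.13 in cluster 14, against -0.30 over all 11119 genes. It was -0.46 over members and -0.25 over all genes in muscle progenitor-like cells, and 0.11 over members and -0.16 over all genes in lymphatic endothelial-like cells. Vascular endothelial-like cells had 0.52 over members and -0.15 over all genes, and mature muscle-like cells -0.49 over members and 0.04 over all genes. TMM scaling shifted every log2 ratio of day 21 over day 7 by 0.23 in muscle progenitor-like, 0.16 in lymphatic endothelial-like and 0.15 in vascular endothelial-like cells, 0.26 in cluster 14 and -0.06 in mature muscle-like cells. For all genes it gave 692 higher and 1004 lower in place of 506 higher and 1496 lower in muscle progenitor-like cells, and 947 higher and 864 lower in place of 716 higher and 1256 lower in vascular endothelial-like cells.

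For Vegfc CRE over Prox1 eGFP at day 7, in vascular endothelial-like cells, 2 of 7 members (Bmp2 and Bmp6) were at least 2-fold higher and 2 (Bmp4 and Nog) lower, where 7.06% of genes were higher and 14.7% lower. The Bmp2 ratio of 2.93 (0.978 to 14.4) rests on 3 UMIs in the 33 Prox1 eGFP cells and includes 1. The Bmp6 ratio of 4.48 (1.21 to 37.4) rests on 2 UMIs there. TMM scaling shifted that comparison by 0.28 (log2) and gave 3 members higher and 2 lower, with 1318 genes higher and 1191 lower in all.

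The other genes of the pathway were read from a list of 43 further ligands, receptors, antagonists, Smads and response genes. The shares over all genes in each comparison are those given above beside the members. In muscle progenitor-like cells none of 29 tested was at least 2-fold higher at day 21 and 3 were lower (2 higher and 2 lower with TMM scaling). The 3 were Acvrl1, a type I receptor of endothelium (2.51 CPM at day 21 and 5.43 CPM at day 7), Hjv, a BMP co-receptor, and Chrdl1, a chordin-like antagonist. The highest antagonist of that list in these cells was Chrdl2, another chordin-like gene, with 255.4 CPM at day 21 and 127.9 CPM at day 7, a ratio of 1.998 (1.915 to 2.084) just under the 2-fold size. The response genes Id1, Id2 and Id3 had ratios of 0.747 (0.714 to 0.781), 0.503 (0.475 to 0.532) and 0.758 (0.748 to 0.768), and Smad7 one of 0.565 (0.528 to 0.605). Id3, the highest, stood at 1632 CPM at day 21 and 2152 CPM at day 7. All 4 were lower at day 21, where the median log2 ratio over all 13660 genes was -0.25 and TMM scaling shifted each by 0.23. A link between these 4 genes and any member was not tested. The highest co-receptor was Rgmb, with 82.2 CPM at day 21 and 90.7 CPM at day 7, the highest signal transducer Smad4, with 82.3 CPM at day 21 and 99.95 CPM at day 7, and the highest other ligand Gdf6, with 2.69 CPM at day 21 and 2.24 CPM at day 7.

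In lymphatic endothelial-like cells 1 of 25 further genes was at least 2-fold higher at day 21, the BMP-family ligand Gdf10, with 17.1 CPM at day 21 and 6.54 CPM at day 7 (ratio 2.62, 2.15 to 3.21). The inhibitory Smads were lower, Smad7 with 11.02 CPM at day 21 and 23.3 CPM at day 7 (0.472, 0.400 to 0.556) and Smad6 with 3 UMIs at day 21 and 13 at day 7. Of the 25 further genes, 2 were at least 2-fold lower with total UMIs and 1 with TMM scaling. Smad1 led the signal transducers with 379.8 CPM at day 21 and 292.8 CPM at day 7, and Crim1, a membrane protein with chordin-type repeats, led the antagonists with 209.5 CPM at day 21 and 169.9 CPM at day 7. The endothelial co-receptor Eng had 176.0 CPM at day 21 and 273.3 CPM at day 7, and Acvrl1 43.2 CPM at day 21 and 47.8 CPM at day 7, so this type I receptor stood far above Bmpr1a there at both times.

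In vascular endothelial-like cells 4 of 22 further genes were at least 2-fold higher at day 21 than at day 7 of Prox1 eGFP (Rgmb, Chrdl2, Smoc1 and Id4) and 3 lower (Eng, Rgma and Fst). In the 33 cells of day 7 the 4 higher genes had 9, 0, 1 and 2 UMIs in that order, and the 3 lower genes 593, 7 and 16. Over all genes in that comparison 7.24% were higher and 12.7% lower. Eng had 441.9 CPM at day 21 and 941 CPM at day 7. For Vegfc CRE over Prox1 eGFP at day 7, none of 24 was at least 2-fold higher and 9 were lower, with 1 higher and 7 lower under TMM scaling. Over all genes 7.06% were higher and 14.7% lower, or 10.9% higher and 9.84% lower with TMM scaling. The 9 were Id2 (59.1 CPM in Vegfc CRE and 147.6 CPM in Prox1 eGFP), Id3 (682.7 and 1511 CPM for Vegfc CRE and Prox1 eGFP), Smad7 (59.7 and 160.3 CPM), Smad6, Crim1, Nbl1, Fst, Rgma and Acvr2b. Rgma and Acvr2b had 7 UMIs each in Prox1 eGFP, and the Acvr2b ratio of 0.442 (0.195 to 1.17) includes 1. Bmp4 was also lower for Vegfc CRE over Prox1 eGFP at day 7, and a link to these 9 genes was not tested. The 33 cells of Prox1 eGFP day 7 carried 780.8 CPM of Prox1, and the part of cell subtype or sort in these differences was not tested.

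Cluster 14 had 1 of 25 further genes at least 2-fold higher at day 21, Chrdl2 (38.3 CPM at day 21 and 11.6 CPM at day 7), and 13 lower (8 with TMM scaling), which included Id2 (38.8 CPM at day 21 and 136.9 CPM at day 7), Id3 (401.4 and 960.9 CPM at the same days), Smad6, Smad7, Rgma and Acvr2a, and also Eng, Twsg1, Fst, Fstl3, Hjv, Gdf6 and Bmpr1b. Over all genes in cluster 14, 4.47% were higher and 21.6% lower, or 7.23% higher and 15.2% lower with TMM scaling. In mature muscle-like cells 2 of 20 were higher (Fst and Chrdl2) and 2 lower (Eng and Bambi). Over all genes in mature muscle-like cells 9.17% were higher and 12.1% lower. Fst, which encodes the activin and BMP binder follistatin, had 38.0 CPM at day 21 and 3.15 CPM at day 7, a ratio of 12.1 (5.67 to 28.6).

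The genes with the most similar placing were sought over the 34 groups of library and class with at least 30 cells, by Pearson's r of log2(CPM + 1) among 14591 genes outside the pathway lists. These groups share 4 libraries and their depth, so r is a description. Bmp4 was most like Sema6a (r = 0.916), Bend7 and Ramp2, and Bmp6 most like Olfml2a (0.871), Crip2 and Dusp8. Bmpr1a was most like Loxl1 (0.923), Gpx8 and Col5a3, Acvr1 like Pkd2 (0.920), Lix1l and Ikbip, and Bmpr2 like Arhgap23 (0.881), App and Dock1. Bmper was most like Slc1a3 (0.827), Lgi3 and Lvrn, Nog like Cytl1 (0.811), Agr2 and Vstm5, and Bmp7 like Acsbg1 (0.856), Chdh and Faah. Nog had only 129 UMIs and Bmp7 224 over the 34 groups, against 15608 for Bmp4. Their r values therefore rest on few counts near the floor. Bmp2 had no close match, its best being Lrp6 with r = 0.665, then Kif3a and Daam1.

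Bmp4 and Bmp6 were also read in the same cells. At day 21, 59.5% of the muscle progenitor-like cells with a Bmp6 UMI had a Bmp4 UMI, against 50.9% of all cells of the class, at median depths of 6654.5 and 6502 UMIs. In lymphatic endothelial-like cells of day 21 the shares were 57.8% of Bmp6 cells and 31.9% of all cells, at median depths of 11529 and 8717.5 UMIs, so the cells with Bmp6 were also the deeper ones.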

How the data were processed

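Gene expression was measured by droplet sequencing (Single Cell 3' v3, per the labels' protocols) in 4 libraries, 1 per group. The authors deposited raw counts of UMIs per gene and barcode, made with Cell Ranger 5.0.1 and mm10, per the submitters' processing notes. The strand setting of the counting is not given in the sources used here. Bmp4, Bmp6, Acvr1 and Bmpr1a overlap genes on the other strand and Bmpr2 overlaps Gm38125 on its own strand, so counts there may be shared. The 27040 genes in both gene lists were kept. No member shares its strand and position with a gene that a single list holds. Positions are from GENCODE M21 on mm10.

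The cell filter asked for 500 or more genes, 1000 or more UMIs and a mitochondrial share below 15%. Scrublet calls were removed, 93 in Vegfc CRE and 0, 1 and 87 in Prox1 eGFP days 0, 7 and 21. Since it marked almost no cell at days 0 and 7, an alternative that drops the highest scores was chosen once the data had been seen. In scanpy 1.11.5 (Python 3.11.15), counts scaled to 10000 per cell, 2000 variable genes without the pathway genes, 30 components, 15 neighbours and Leiden resolution 1.0 (leidenalg 0.10.2) gave the clusters, without integration. A class name needed at least 3 fixed markers at least 2-fold higher in at least 20% of cells. The naming checks were set after clusters were seen and left 17.2% of Vegfc CRE cells and 11.3%, 4.70% and 4.94% of Prox1 eGFP cells at days 0, 7 and 21 unnamed.

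Levels are summed UMIs of a class in a library, as CPM. Intervals are exact Poisson for levels, exact conditional binomial for ratios and Clopper-Pearson for shares, at 95%. A count of 0 was set to 3 counts over the group. Genes with at least 10 UMIs in both libraries together were counted at 2-fold. The ratio code was tested on simulated data. TMM factors came from edgeR 4.0.16 (R 4.3.3). The members, lists and tests were chosen with earlier results of these data known. The text names all members, the further pathway genes at least 2-fold apart or highest of their list, and the 3 genes most like each member among those with at least 100 UMIs. That result for Grem1 is not reported here. Id1, Cd8a, Foxp3, Mki67, Mmp13, Acan, Ccl19, Cxcl13, Cxcl14 and the cluster genes were named after their values were seen. Libraries share no replicate, so p-values and standard errors are not given.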

Additional observations from a re-analysis of the deposited data

Results flagged for a closer look

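The ratio of Bmp4 between day 21 and day 7 of Prox1 eGFP was not the same in the 5 groups of cells compared, and this drew attention because the same contrast pointed different ways. It was 1.10 in lymphatic endothelial-like cells, against 0.575 in muscle progenitor-like, 0.581 in vascular endothelial-like, 0.317 in cluster 14 and 0.139 in mature muscle-like cells. The difference between the groups was not tested, since each rests on 1 library per time. The lymphatic value became 0.984 with cells weighted equally and 0.348 with day 7 taken from the 8 cells of Vegfc CRE, so its side of 1 is not fixed.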

How the results depend on the processing

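No paired analysis was possible because each group has 1 library, and leaving out a replicate was not possible for the same reason. Taking day 7 from Vegfc CRE, a choice made after seeing the data, turned Bmp4 (1.12) and Bmp6 (0.501) in muscle progenitor-like cells, Bmp4 (0.348) and Bmp6 (0.215) in lymphatic endothelial-like cells and Bmp4 (6.36) and Bmpr2 (1.29) in vascular endothelial-like cells, and moved vascular Bmp6 to 3.23. The cause was not tested. Cells weighted equally gave 0.984 for lymphatic Bmp4, 0.607 for muscle progenitor-like Bmp4 and 0.118 for Bmp4 of Vegfc CRE over Prox1 eGFP in vascular cells. TMM scaling gave 0.674 for Bmp4 and 4.12 for Bmp6 in muscle progenitor-like cells. Clustering each library alone gave 0.532 for Bmp4 and 3.05 for Bmp6 in muscle progenitor-like cells, 0.956 for vascular Bmp4 and 0.154 for Bmp4 of Vegfc CRE over Prox1 eGFP. With at least 1 UMI asked of a gene, 2 members were higher and 2 lower in muscle progenitor-like cells. In lymphatic endothelial-like cells 2 were higher with doublet calls kept, and 0 lower with the pathway genes used to cluster or with the highest doublet scores removed. The share of all genes at least 2-fold apart was not computed under these settings, so these member counts have no background beside them. In all, 285 of 316 alternative ratios, 88 of 94 counts, 731 of 829 levels and 92 of 119 shares stayed within the counting interval (counts, within 1.5 times) of the value reported. Leaving out the Vegfc CRE setting, 283 of 304 ratios did. Depth limits Nog, Grem1, Bmp7 and all vascular values of Prox1 eGFP day 7, which rest on 33 cells. Unnamed clusters could not be matched across other clusterings. In cluster 14 TMM scaling left 2 members at least 2-fold lower, where total UMIs gave 5.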

Other observations

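In cluster 17, an unnamed group with osteoclast and cell division genes among its leaders, Bmp4 stood at 84.5 CPM at day 21, with 0 UMIs in the 74 cells of Vegfc CRE. Bmpr1a stood at 43.7 CPM at day 21 and, in Vegfc CRE, 2.07 CPM, and Bmp6 at 16.2 CPM at day 21 and 0 UMIs in Vegfc CRE, so 1 cluster held cells with differing member levels in the 2 libraries. Neutrophil-like cells of Vegfc CRE, shallow at a median of 2045.5 UMIs, had 32.2 CPM of Bmpr2 and 8.84 CPM of Bmpr1a. Cluster 7, the single group with at least 30 cells at days 0 and 21, had 40.0 CPM of Bmpr2 at day 21 and 44.6 CPM at day 0, a ratio of 0.897 (0.519 to 1.53).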
